A study of Neurospora crassa with 5 samples.

Results

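Transcript levels of 8 genes for nitrate use and nitrogen regulation were followed in crossing cultures of the filamentous fungus Neurospora crassa. The genes were taken by locus tag and were all found among the 10591 gene rows of the count table. They comprise the nitrate transporter gene nit-10 (NCU07205), the nitrate reductase gene nit-3 (NCU05298) and the nitrite reductase gene nit-6 (NCU04720). The regulators are nit-2 (NCU09068), nit-4 (NCU08294) and nmr (NCU04158). The last pair, am (NCU01195) and gln-1 (NCU06724), encodes enzymes that fix ammonium into glutamate and glutamine. All 8 passed the filter on low counts, as did 8638 genes in all.

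Every library came from 1 strain, FGSC 4564, whose genotype is given as mat a[m1]s-3B cyh-1. It is a mutant of the mating-type gene mat 1-2-1, and cyh-1 is a cycloheximide resistance marker. Cultures had grown for 6 days on synthetic crossing medium until protoperithecia, the immature female fruiting bodies, were abundant. The 2 uncrossed libraries (replicates 1 and 3) were taken at 0 h, and the 3 crossed libraries (replicates 1, 2 and 3) at 2 h after conidia of the wild type FGSC 2489 were added. Each replicate was the tissue of a single plate. No uncrossed library was taken at 2 h, so crossing cannot be told apart here from elapsed time or handling. All groups carry the mutation, and wild-type recipient cultures were not analysed here.

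Nitrate is a secondary nitrogen source for this fungus, used when ammonium and glutamine are scarce. It is taken up by NIT-10, reduced to nitrite by NIT-3 and then to ammonium by NIT-6. Transcription of these genes needs both the GATA factor NIT-2, which acts on many nitrogen genes, and the zinc-cluster factor NIT-4, which responds to nitrate. The protein NMR binds NIT-2 and holds it in check when nitrogen is plentiful. Ammonium enters glutamate through the NADP-dependent glutamate dehydrogenase encoded by am, and glutamine through glutamine synthetase, of which gln-1 is one gene. Nitrate is the usual nitrogen source of synthetic crossing medium.

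The libraries held 25817200 to 39639683 counts, and ribosomal RNA genes took 14.3 to 34.0% of them. Levels are given as CPM, counts per 1000000 of the library size after TMM scaling, a correction for library composition. On this scale 3 counts, the limit that a count of 0 would allow, correspond to 0.0717 to 0.110 CPM, far below every level given here. The highest ribosomal shares were those of crossed replicates 2 and 3 (34.0 and 33.6%), whereas crossed replicate 1 (19.3%) lay between uncrossed replicates 1 and 3 (14.3 and 21.3%). The row of the mutated gene could not be assigned to libraries, so it gave no check of the labels.

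The 3 nitrate genes were lower in all crossed libraries than in either uncrossed library, at 0.452 to 0.503 of the uncrossed level by the fitted fold change. The am gene was higher in all crossed libraries, 1.8-fold. The 3 regulator genes and gln-1 overlapped between the groups. In edgeR's quasi-likelihood test none of the 8 genes reached 0.05 after Benjamini-Hochberg adjustment, a threshold that 4 of the 8638 tested genes (0.0463%) passed. At an unadjusted p under 0.05 there were 4 of the 8, 3 lower and 1 higher, against 11% of all tested genes lower and 10.3% higher. DESeq2 called the same 4 at an adjusted p of 0.05, where it called 6.29% of genes lower and 5.51% higher. The groups lay apart for 3 lower genes and 1 higher gene of the 8, against backgrounds of 20.6% and 21.3%. The median log2 fold change of the 8 was -0.03, and that of all tested genes was 0.0008. Conidia were still on the crossed plates and may add their own RNA, and in such bulk samples fewer cells of a type and less RNA per cell cannot be told apart.

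**Figure D1:**
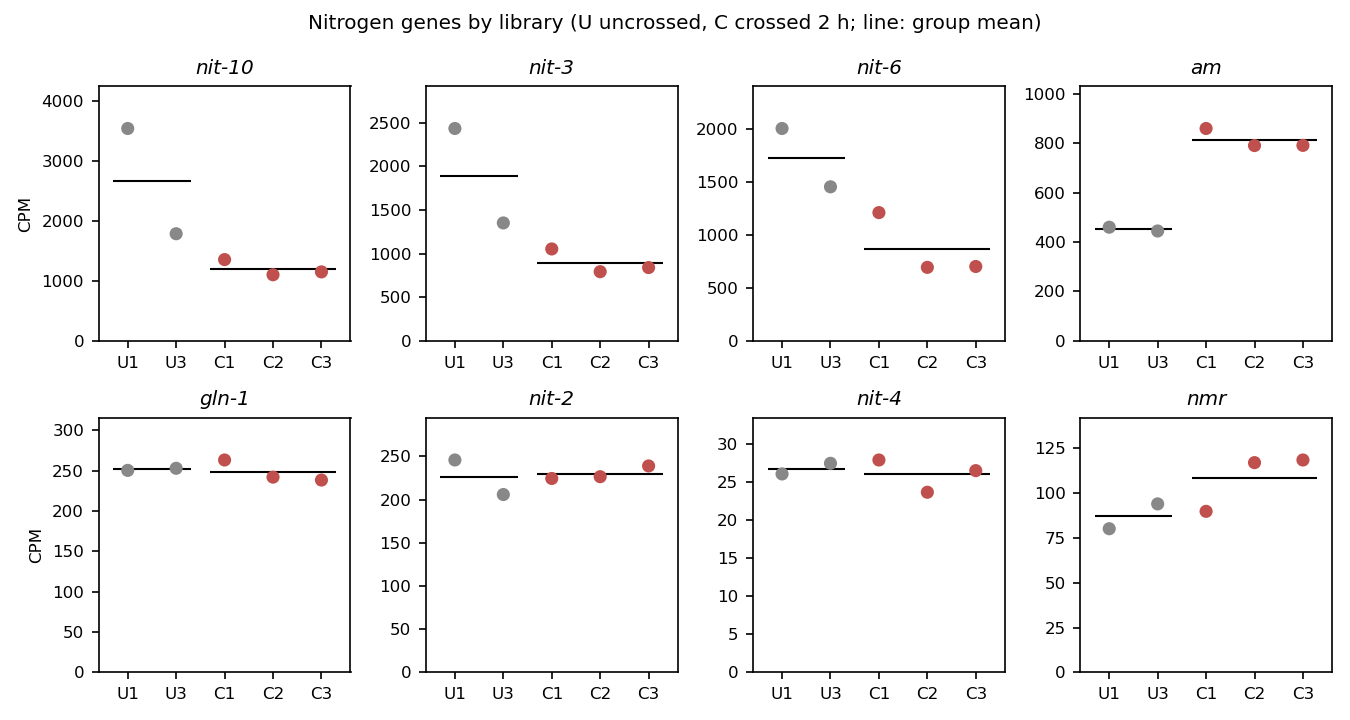
CPM (y axes, from 0) of each of the 8 genes in the 5 libraries (x axes; U1 and U3 uncrossed, C1 to C3 crossed, named by replicate), with a line at each group mean. The 3 nitrate genes lie lower and am lies higher in every crossed library, with the uncrossed nitrate values far apart, while the groups overlap in the other 4 genes.

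The transporter gene nit-10 had the highest level of the 8. Its values were 3541 and 1787 CPM in uncrossed replicates 1 and 3. Crossed replicates 1, 2 and 3 had 1356, 1103 and 1151 CPM. Uncrossed replicate 1 stood well above the rest, at 1.98 times uncrossed replicate 3, and the groups did not overlap. Before crossing the mean was 2664 ± 1241 CPM (SD, n = 2), and after it 1203 ± 134.3 CPM (SD, n = 3). This is a log2 fold change of -1.15 (SE 0.30, 95% interval -1.90 to -0.39), for which edgeR gave an adjusted p of 0.164 and DESeq2 one of 0.00616. Without uncrossed replicate 1 it was -0.57, and without uncrossed replicate 3 it was -1.56.

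Nitrate reductase, encoded by nit-3, followed the transporter closely. Its levels were 2435 and 1352 CPM in the uncrossed libraries and 1054, 793.5 and 840.9 CPM in the crossed libraries. Again uncrossed replicate 1 was highest, at 1.8 times uncrossed replicate 3, and the lowest uncrossed value was 1.28 times the highest crossed value. The uncrossed mean of 1894 ± 766 CPM (SD, n = 2) stood against a crossed mean of 896.2 ± 138.9 CPM (SD, n = 3). For the log2 fold change of -1.08 (SE 0.28, 95% interval -1.78 to -0.38) edgeR gave an adjusted p of 0.162 and DESeq2 one of 0.00630. It was -0.59 without uncrossed replicate 1, the smallest size among the 13 alternative fits.

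Nitrite reductase, encoded by nit-6, was also lower after crossing but divided the libraries in another way. It had 2004 and 1454 CPM in the uncrossed libraries. The crossed libraries had 1211 CPM in replicate 1, 694.0 in replicate 2 and 702.3 in replicate 3. Crossed replicate 1 was 1.73 times the mean of the other crossed libraries, and its distance to uncrossed replicate 3 was small (a ratio of 0.833). Its mean was 1729 ± 389.0 CPM (SD, n = 2) in uncrossed and 869.0 ± 295.9 CPM (SD, n = 3) in crossed cultures, and the log2 fold change was -0.99 (SE 0.31, 95% interval -1.76 to -0.23). It had an adjusted p of 0.180 in edgeR and of 0.0234 in DESeq2. Without crossed replicate 1 the log2 fold change was -1.31, and the adjusted p by edgeR was 0.0385. That fit called 8.84% of all its tested genes. Without crossed replicate 2 it was -0.85 (95% interval -1.74 to 0.03), and without crossed replicate 3 it was -0.86 (-1.77 to 0.05). Both of these intervals held 0. Without uncrossed replicate 1 the log2 fold change was -0.74.

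Summed over the 3 nitrate genes, the level was 7981 CPM in uncrossed replicate 1 and 4593 CPM in uncrossed replicate 3. It was 3621 CPM in crossed replicate 1, 2591 in crossed replicate 2 and 2694 in crossed replicate 3. As a share of the counts outside ribosomal RNA genes, which needs no TMM scaling, the 3 genes took 1.06% and 0.617% before crossing and 0.488%, 0.340% and 0.358% after it. The order of the libraries was the same by both measures. The summed level of 5 conidial markers (eas, con-13, con-10, con-8 and con-6), all of which were detected in each library, ran the opposite way, with eas making up most of it. Taken singly, con-8 was lower in crossed replicate 1 (2304 CPM) than in uncrossed replicate 3 (2399 CPM), and con-10 was lower there (485.3 CPM) than in either uncrossed library (521.3 and 497.3 CPM). The sum was 15162 CPM in uncrossed replicate 1 and 30531 CPM in uncrossed replicate 3. The crossed libraries summed to 35718 CPM in replicate 1, 64029 in replicate 2 and 59585 in replicate 3. The part of conidial RNA in the nitrate gene values was not tested. None of the 5 markers passed the threshold in edgeR, while 3 of them were higher at an unadjusted p under 0.05 and called by DESeq2, against 10.3% and 5.51% of all tested genes in that direction.

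The glutamate dehydrogenase gene am differed in the other direction and with little spread. Uncrossed replicates 1 and 3 had 459.9 and 444.6 CPM. After crossing it had 859.1 CPM in replicate 1, 790.0 in replicate 2 and 790.7 in replicate 3. Every crossed library had at least 1.72 times the level of the higher uncrossed library, and the highest value was that of crossed replicate 1. Uncrossed cultures averaged 452.2 ± 10.8 CPM (SD, n = 2) and crossed ones 813.3 ± 39.7 CPM (SD, n = 3). On the log2 scale the difference was 0.85 (SE 0.12, 95% interval 0.54 to 1.15), for which the unadjusted p of edgeR was 5.83e-04, the 48th smallest of the 8638. After adjustment the p was 0.105 in edgeR and 9.70e-14 in DESeq2. Without crossed replicate 1 edgeR gave an adjusted p of 0.0336 at a log2 fold change of 0.81, in a fit that called 8.84% of all its tested genes. By size the change of am was the 429th highest. Crossed replicate 1 had 1.93 times the am level of uncrossed replicate 3. In the same libraries the marker con-13 was at 84.7 against 35.8 CPM, eas at 27897 against 22810 CPM and con-6 at 4947 against 4788 CPM, while con-8 and con-10 were lower, as given above. The part of conidial RNA in the am values was not tested.

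Glutamine synthetase transcripts of gln-1 stayed within a narrow range. They were at 250.2 and 252.8 CPM before crossing and at 263.1, 241.9 and 238.2 CPM after it. The crossed values lay on both sides of the uncrossed ones. The log2 fold change was -0.02 (SE 0.11), and its 95% interval of -0.29 to 0.24 bounds the difference that these libraries allow (adjusted p = 0.910 by edgeR).

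The global regulator gene nit-2 had 246.0 and 206.0 CPM in the uncrossed libraries and 224.6, 226.6 and 239.0 CPM in the crossed libraries. All crossed values lay between the uncrossed ones. Its log2 fold change was 0.03 (SE 0.12, 95% interval -0.28 to 0.33) at an adjusted p of 0.906 in edgeR, and its sign turned with plain library sizes (-0.20). The nitrate-responsive regulator nit-4 was the least abundant of the 8, at 26.1 and 27.5 CPM before and 27.9, 23.7 and 26.5 CPM after crossing. Here too the groups overlapped, with a log2 fold change of -0.04 (SE 0.12, 95% interval -0.34 to 0.25, adjusted p = 0.850 by edgeR).

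The nmr gene, whose product restrains NIT-2, had 80.0 and 93.8 CPM before crossing. After it the levels were 89.7, 116.8 and 118.3 CPM in replicates 1 to 3. Crossed replicate 1 lay between the uncrossed libraries, and crossed replicates 2 and 3 lay above both. The log2 fold change was 0.32 (SE 0.16, 95% interval -0.08 to 0.72), and edgeR and DESeq2 gave adjusted p of 0.305 and 0.319. It was 0.09 with plain library sizes and 0.21 without uncrossed replicate 1. Without uncrossed replicate 3 it was 0.43, and without crossed replicate 1 also 0.43. Between the regulators and the nitrate genes the intervals differed in place. Those of nit-10 and nit-3 ended at -0.39 and -0.38, below the lower limits of nit-2 (-0.28), nit-4 (-0.34) and nmr (-0.08). That of nit-6 ended at -0.23 and overlapped those of nit-2 and nit-4. The separation did not hold without crossed replicate 2, where the intervals of nit-10 and nit-3 both ended at -0.12. They then overlapped those of nit-2 (from -0.39), nit-4 (from -0.34) and nmr (from -0.23). A difference in fold change between genes was tested only for the pairs described next.

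**Figure D2:**
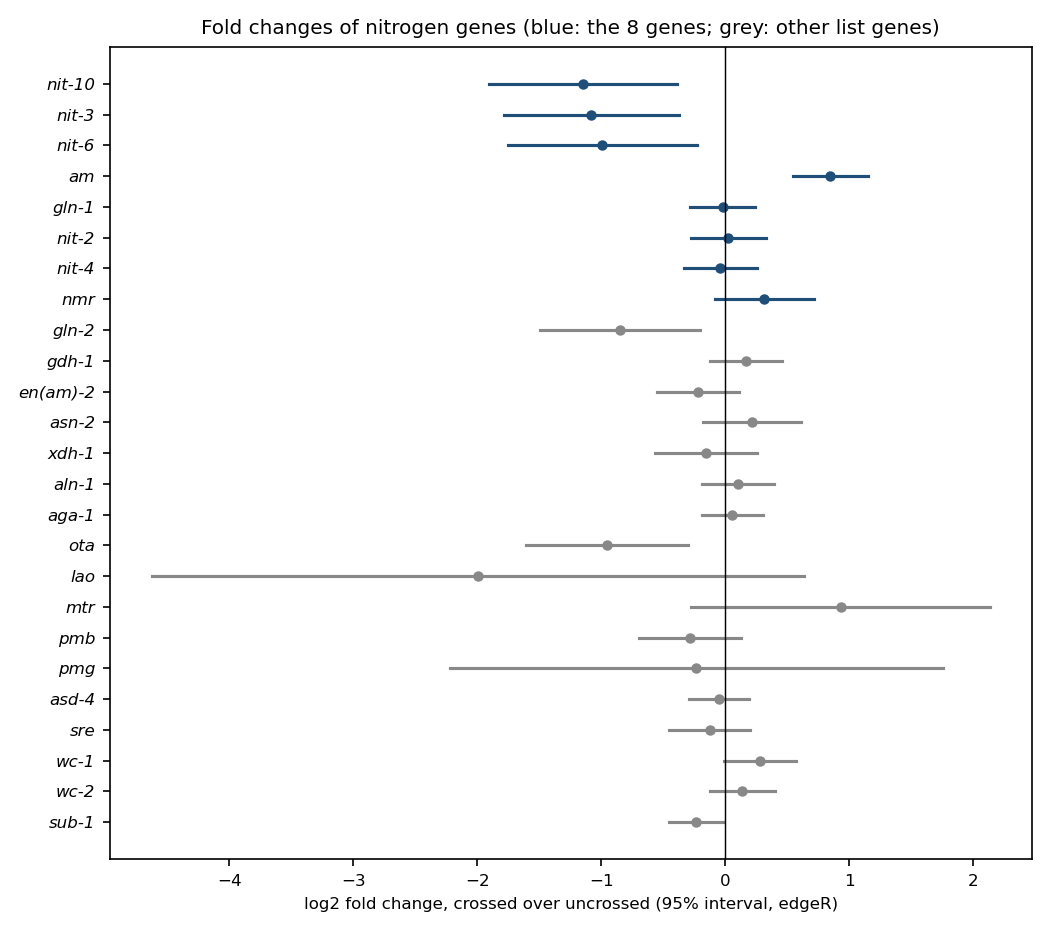
Log2 fold change of crossed over uncrossed libraries (x axis), each with its 95% interval from edgeR. The 8 genes are blue, and 17 other listed genes, 5 of them GATA factor genes, are grey. The intervals of nit-10, nit-3, nit-6, am, gln-2, ota and sub-1 leave out 0, and those of lao and pmg are the widest.

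Ratios between genes within a library do not depend on the library size, and 4 pairs were compared. The smallest p that 2 libraries against 3 allow in a two-sided exact permutation test is 0.1. The log2 ratio of am to gln-1 CPM was 0.88 and 0.81 in the uncrossed libraries and 1.71, 1.71 and 1.73 in the crossed libraries. The groups were far apart and each was compact, with means of 0.85 ± 0.05 (SD, n = 2) and 1.72 ± 0.01 (SD, n = 3). The difference was 0.87 (exact permutation p = 0.1, adjusted over the 4 pairs 0.4), and it lay between 0.84 and 0.90 when any 1 library was left out. No p below 0.05 can be reached here.

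The log2 ratio of nit-3 to nit-10 ran only from -0.54 to -0.36 over the 5 libraries, and the groups overlapped (difference 0.04, exact permutation p = 0.6, adjusted 0.8). The log2 ratio of nit-3 to nit-6 was 0.28 and -0.10 before crossing and -0.20, 0.19 and 0.26 after it. Uncrossed replicate 3 and crossed replicate 1 were the low ones, and the group means were 0.09 ± 0.27 (SD, n = 2) and 0.08 ± 0.25 (SD, n = 3), with an exact permutation p of 1 that stayed 1 after adjustment. The log2 ratio of nit-2 to nmr was 1.62 and 1.13 before and 1.32, 0.96 and 1.02 after crossing, with overlapping groups (difference -0.28, exact permutation p = 0.3, adjusted 0.6). This difference was -0.04 without uncrossed replicate 1 and -0.52 without uncrossed replicate 3.

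**Figure D3:**
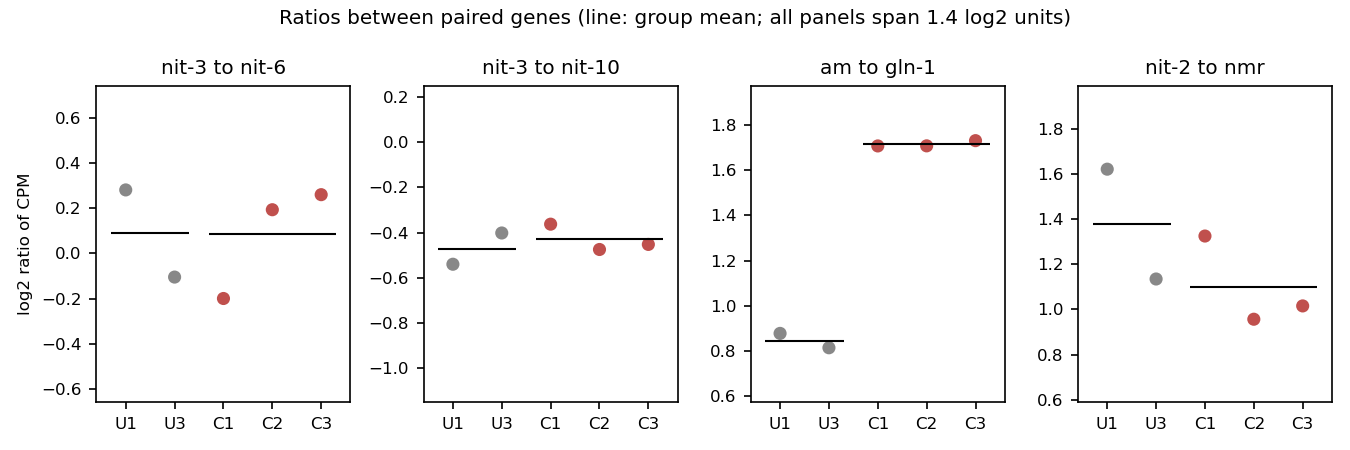
Log2 ratio of CPM (y axes, all spanning the same number of log2 units) for the 4 gene pairs in each library (x axes, U uncrossed and C crossed with the replicate number), with a line at each group mean. The ratio of am to gln-1 goes from 0.85 on average to 1.72 with no overlap, while the other 3 ratios overlap between the groups.

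Levels can be set against each other only per length, and CPM were therefore divided by the gene length in kb, introns included. On this scale the mean levels over the 5 libraries placed nit-10 at rank 47, nit-3 at 91, am at 148 and nit-6 at 167 among the tested genes. The next was gln-1 at rank 834, followed by nit-2 at 1414, nmr at 2122 and nit-4 at 6484. Before crossing the order was nit-10 (903.1 ± 420.6 CPM per kb, SD, n = 2), nit-3 (590.5 ± 238.8), nit-6 (403.7 ± 90.8) and am (202.4 ± 4.84). These SDs are spreads over libraries and do not measure a difference between genes within a library. In uncrossed replicates 1 and 3, nit-10 (1200 and 605.7 CPM per kb) was above nit-3 (759.3 and 421.7). There nit-3 was in turn above nit-6 (467.9 and 339.4). After crossing, nit-10 was at 407.9 ± 45.5 CPM per kb (SD, n = 3), am at 364.1 ± 17.8, nit-3 at 279.5 ± 43.3 and nit-6 at 202.8 ± 69.1. The am gene thus stood behind the 3 nitrate genes before crossing and behind nit-10 alone after it. In crossed replicates 1, 2 and 3, nit-10 was at 459.6, 373.9 and 390.1 CPM per kb, above am at 384.6, 353.6 and 354.0. The regulators were below gln-1 in both groups, with nit-2 at 44.6 and 45.4, nmr at 27.1 and 33.7, and nit-4 at 6.08 and 5.91 CPM per kb before and after crossing.

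The pattern most like that of nit-3 over the 5 libraries was sought among 6796 genes with a mean of at least 10 CPM. Likeness was the root mean square difference of log2 CPM after each gene had been centred on its own mean. The nearest gene was nit-10, with a difference of 0.06. It was followed by NCU05663 (0.07), the ornithine transaminase gene ota (NCU00194, 0.08), NCU05706 (0.08) and NCU04721 (0.09). These genes share with nit-3 a high uncrossed replicate 1 and low crossed replicates 2 and 3, and the ranking rests on 5 libraries. By the same measure nit-6 took rank 93 (0.20). Among the 6796 genes, nmr at rank 5750 and am at 6355 were remote from nit-3. Nearer the middle of the ranking were nit-4 at 2846, gln-1 at 2858 and nit-2 at 2897.

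NCU04721 is the next gene to nit-6 in the order of the NC12 gene table. Its levels were 120.2 and 75.2 CPM before and 49.1, 39.5 and 39.9 CPM after crossing. Its log2 fold change was -1.19 (SE 0.22), where edgeR gave an adjusted p of 0.135 and DESeq2 one of 3.04e-04. The genes on either side of the 8 were then examined as a whole, a choice made after that value had been seen. Of 16 neighbours 14 were tested, 7 with fold changes above 0 and 7 below, and their median log2 fold change was -0.06. Of the 14, 2 had an unadjusted p under 0.05, against 21.3% of all tested genes, and none passed the adjusted threshold in edgeR, while DESeq2 called 1, NCU04721, against 11.8% of all genes. The second of them, the noncoding RNA gene NCU14073 next to am, had 7.42 and 11.1 CPM before and 12.4, 16.6 and 14.6 CPM after crossing (adjusted p = 0.212 in edgeR). The use of strand in counting is not stated, so reads shared by neighbouring transcripts cannot be told apart.

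Other genes of nitrogen metabolism, and GATA factor genes beside nit-2, were taken from a list by symbol. Of these, 17 genes were matched and tested, 5 of them GATA factor genes. None passed the adjusted threshold in edgeR, 3 had an unadjusted p under 0.05, all lower after crossing, and DESeq2 called 2. Over all tested genes the shares were 21.3% at an unadjusted p under 0.05 and 11.8% called by DESeq2, so the counts of this list were no higher than the background. Their median log2 fold change was -0.12, with 7 above 0 and 10 below. The second glutamine synthetase gene, gln-2 (NCU04856), had 730.5 and 398.0 CPM before and 331.1, 305.8 and 302.8 CPM after crossing. This made -0.85 on the log2 scale (SE 0.26, adjusted p = 0.178 in edgeR and 0.0292 in DESeq2), and without uncrossed replicate 1 it was -0.35. Unlike gln-1, it was highest in uncrossed replicate 1, as were the nitrate genes.

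The ota gene, for an enzyme that takes ornithine towards glutamate and proline, had 60.1 and 35.8 CPM before and 30.0, 22.3 and 21.9 CPM after crossing. Between the groups it differed by -0.95 on the log2 scale (SE 0.26), and edgeR and DESeq2 gave adjusted p of 0.164 and 0.0194. Without uncrossed replicate 1 the difference was -0.53. The GATA factor gene sub-1 (NCU01154), named for the submerged protoperithecia of its mutant, had 86.8 and 83.0 CPM before and 69.2, 74.0 and 73.4 CPM after crossing. The groups of sub-1 lay apart by a small margin, at -0.23 on the log2 scale (SE 0.09), where edgeR and DESeq2 gave adjusted p of 0.215 and 0.115, and at -0.45 with plain library sizes.

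By role, the 4 matched genes for glutamine, glutamate and asparagine synthesis had log2 fold changes of -0.85 to 0.21. Among them the NAD-dependent glutamate dehydrogenase gene gdh-1 had 162.1 and 193.9 CPM before and 204.3, 197.3 and 198.3 CPM after crossing. On the log2 scale this is 0.17 (SE 0.12, adjusted p = 0.426 in edgeR), beside 0.85 for am, and it ran from 0.04 without uncrossed replicate 1 to 0.30 without uncrossed replicate 3. The glutamate synthase gene en(am)-2 had 345.5 and 293.4 CPM before and 297.9, 261.5 and 263.7 CPM after crossing, with overlapping groups. The 5 genes for release of nitrogen from purines and amino acids ran from -2.0 to 0.11. Their extreme was the L-amino acid oxidase gene lao (NCU01066), with 977.5 and 86.8 CPM in the uncrossed libraries and 255.7, 75.4 and 68.8 CPM in the crossed libraries. Replicate 1 was the high library of both groups for lao, and the groups overlapped.

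The 3 amino acid permease genes ran from -0.28 to 0.93. The permease gene mtr had 33.7 and 56.5 CPM before and 41.1, 107.2 and 109.9 CPM after crossing, so that crossed replicate 1 lay between the uncrossed libraries, as it did for nmr. The general amino acid permease gene pmg had 464.2 and 53.2 CPM in the uncrossed libraries, the widest gap of the listed nitrogen genes after lao, and 242.7, 197.0 and 220.5 CPM in the crossed libraries. The 5 GATA factor genes other than nit-2 ran from -0.23 to 0.28. Genes for the molybdenum cofactor, which nitrate reductase needs, were not matched by symbol and were not analysed here.

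**Figure D4:**
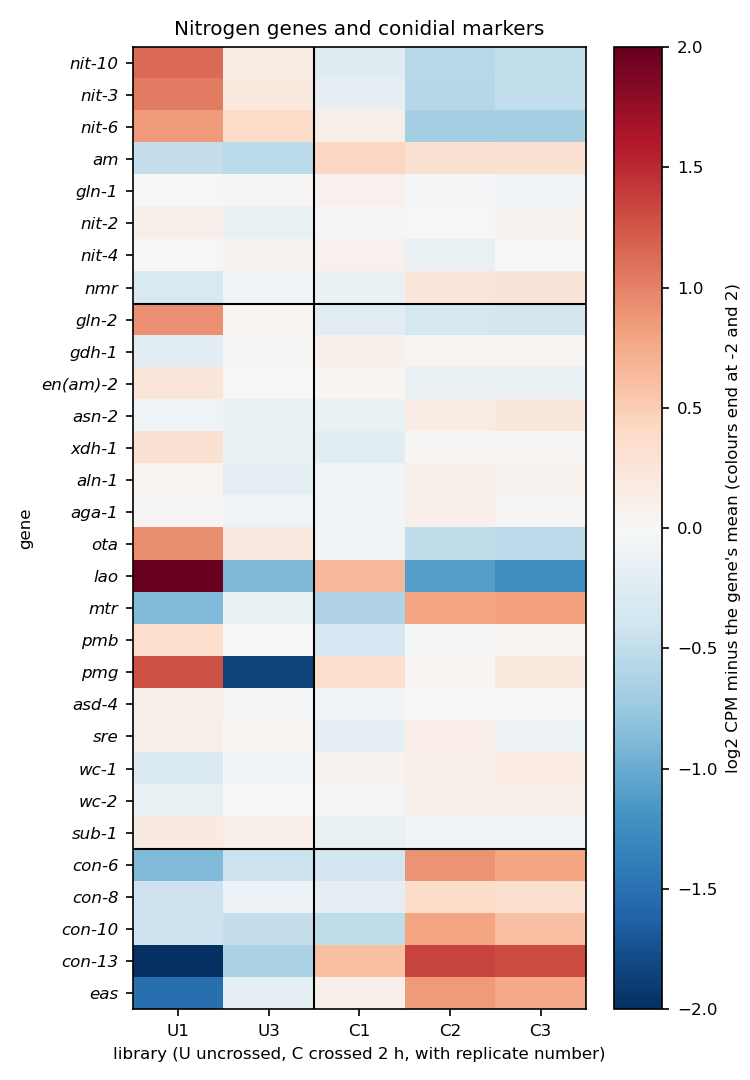
Log2 CPM minus each gene's mean over the 5 libraries (colour scale, ending at -2 and 2) by library (x axis, U uncrossed and C crossed with the replicate number). The top block holds the 8 genes, the middle block 17 other listed genes, 5 of them GATA factor genes, and the bottom block 5 conidial markers. The nitrate genes, gln-2, ota, lao and pmg share a high uncrossed replicate 1. The am gene splits at the group line, and the conidial markers are highest in crossed replicates 2 and 3.

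The authors' deposited table of relative expression, which sets the lower stage at 1, gave uncrossed to crossed ratios of 2.36 for nit-10, 2.25 for nit-3 and 2.13 for nit-6. For am the authors' deposited table gave a crossed to uncrossed ratio of 1.56, and for nmr 1.05. For nit-4, gln-1 and nit-2 the authors' deposited table gave uncrossed to crossed ratios of 1.19, 1.17 and 1.12. In the authors' deposited table the limits lay apart for all 8 genes, 6 of them lower in crossed cultures, where 59.6% of 9205 genes were lower with limits apart, and 2 higher, against 15.7%. The 4 genes nit-2, nit-4, nmr and gln-1 thus had limits apart in the authors' deposited table while their CPM overlapped between the groups. Both rest on the same libraries. With plain library sizes the edgeR log2 fold changes were -0.20 for nit-2, -0.25 for nit-4, -0.23 for gln-1 and 0.09 for nmr. The median of all tested genes on that scale was -0.21. How the deposited ratios were scaled is not stated.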

How the data were processed

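Total RNA was made into stranded Illumina libraries and sequenced in pairs of 101 bp, per the labels' protocols. HISAT2 2.1.0, StringTie 1.3.3b, fastp and CASAVA 1.8.2 are named by the submitters' processing notes. The authors deposited whole-number counts per gene for 5 libraries. How they were counted (build, annotation, strand) is not given in the sources used. The authors' deposited table of relative expression holds, for each gene, a ratio at either stage and how far its limits lie from it, per the file headers. Its program is not stated.

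One count row (mat_a1) with 6 values for 5 columns was left out. Symbols, lengths and gene order came from the RefSeq table of NC12, which matched 10590 of 10591 rows. Counts were tested with edgeR 4.0.16 (R 4.3.3) using filterByExpr, TMM, robust quasi-likelihood and group alone as the model, two-sided, with Benjamini-Hochberg adjustment over 8638 genes. Standard errors came from the F statistic, intervals are 95% intervals, and log2 CPM for likeness used a prior count of 2. Pair ratios used an exact permutation test over libraries. Of 35 further symbols looked up, 17 different genes were matched. From these the text names those with an unadjusted p under 0.05, up to 6, and others to describe their lists, chosen after their values were seen. The 5 genes nearest to nit-3 were named by rule. Alternatives were DESeq2 1.42.0, limma-voom (limma 3.58.1), DESeq2 size factors or plain library sizes in edgeR, no filter, at least 1 CPM in 2 libraries, no ribosomal RNA genes, each library left out, and a block for the replicate number. Members, lists and tests were chosen with earlier results of these data known. No molecular identifiers are recorded, so floors reflect only the counting error of reads.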

Additional observations from a re-analysis of the deposited data

How the results depend on the processing

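The nitrate genes and am kept their direction in all 13 alternative fits. Their log2 fold changes ran from -1.56 to -0.57 (nit-10), -1.44 to -0.59 (nit-3), -1.31 to -0.74 (nit-6) and 0.64 to 0.87 (am), with adjusted p up to 0.488, 0.489, 0.581 and 0.488. DESeq2 called these 4 at -1.15, -1.09, -1.0 and 0.84. By edgeR, calls were gained without crossed replicate 1 for nit-6 (-1.31) and am (0.81), in a fit that called 8.84% of all its tested genes. The -1.56 of nit-10 came without uncrossed replicate 3, where 1 uncrossed library was left. The nmr gene also kept its direction in all 13 fits (0.09 to 0.43). With single libraries left out, the sign turned within the ranges of nit-2 (-0.10 to 0.16), nit-4 (-0.0946 to 0.0237) and gln-1 (-0.0675 to 0.0058). Plain library sizes, which moved the median of all genes to -0.21, gave nit-2 a value of -0.20. Differences in the ratio of nit-3 to nit-6 ran from -0.20 to 0.19, and of nit-3 to nit-10 from -0.0282 to 0.11, when single libraries were left out.

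The number of genes called was 1019 by DESeq2, 266 with the replicate block, and 0 to 762 with 1 library left out: 762 without crossed replicate 1, 192 without uncrossed replicate 3, and 0 by edgeR without each of the others, where 871 to 877 genes had an unadjusted p under 0.05. The replicate block called none of the 8 genes. With it am had a log2 fold change of 0.87 (adjusted p = 0.0831 by edgeR) and nit-4 one of 0.0233, a turned sign. What the numbers stand for is not in the labels, deviations of same-numbered libraries correlated at 0.26 and 0.22, and 2 pairs are too few to settle a pairing. No uncrossed library is numbered 2, and the block therefore takes up crossed replicate 2 in full.

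Among the 17 other listed genes, DESeq2 called gln-2 (-0.86) and ota (-0.96). Signs turned with plain library sizes for gdh-1 (-0.0398), asn-2 (-0.0179), aln-1 (-0.12), aga-1 (-0.17) and wc-2 (-0.0798). With single libraries left out they turned within the ranges of xdh-1 (-0.36 to 0.0808), aln-1 (-0.0144 to 0.24), aga-1 (-0.0013 to 0.11), lao (-2.88 to 0.62), pmg (-1.08 to 2.05) and asd-4 (-0.13 to 0.0265). For pmg the sign also turned with limma-voom (0.41) and the replicate block (0.55). No cause of these differences was tested. Where 1 uncrossed library remained, its spread was taken from the crossed ones.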
